A study of Mus musculus with 6 samples.

Results

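Transcripts of 9 enzymes and carriers of fuel and amino acid metabolism were compared between UN-SCC679 and UN-SCC680, 2 mouse lung squamous cell carcinoma (LUSC) cell lines. The 9 genes, *Pdk4*, *Slc25a13*, *Decr1*, *Asns*, *Aco1*, *Aldh1b1*, *Aass*, *Grhpr* and *Impdh1*, were picked by Ensembl identifier among the 55359 rows of the count table. Rows were read as named genes in the first stretch of chromosomes 4 and 6, where the positions in the table are those of the GRCm38 mouse genome. The 1144 rows of these windows begin no farther than base 58589764 of chromosome 4 and base 29487716 of chromosome 6. The genes were proposed with the difference between the lines already known. Their values in the lines are therefore a description, without a test.

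Both lines came from lung tumors that the carcinogen NTCU (N-nitroso-tris-chloroethylurea), painted on the skin, had induced in A/J mice. Each came from a different mouse, was passed through the flank of immunodeficient mice and then of A/J mice, and was grown in serum-supplemented RPMI medium. PolyA RNA was sequenced in 3 libraries per line without any treatment, and the labels do not say whether the libraries came from separate cultures, so the spread between them may be technical. Since each line stands for 1 tumor, line and mouse of origin cannot be told apart. Library totals ran from 3568293 to 4363229 counts in UN-SCC679 and from 4242716 to 4381885 in UN-SCC680. The squamous markers *Krt5*, *Krt14*, *Krt6a*, *Trp63* and *Sox2* lie outside the windows, so the labelled cell type could not be checked, and of the listed markers of other cells *Col1a2* alone lies inside them. *Col1a2*, a collagen gene typical of fibroblasts, had 99141, 125364 and 103704 counts in UN-SCC679 and 9976, 9655 and 9290 in UN-SCC680, so it was higher in every UN-SCC679 library. Its part in the differences given here was not tested.

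The enzymes stand at connected points of metabolism. Pyruvate enters the mitochondrial citrate cycle through the pyruvate dehydrogenase complex, which the kinase PDK4 switches off by phosphorylation, most of all in fasted tissue that burns fatty acids. Some fatty acids with double bonds, mainly polyunsaturated ones, need the auxiliary mitochondrial dienoyl-CoA reductase DECR1 before beta-oxidation can go on. Citrin, the product of *Slc25a13*, carries aspartate out of mitochondria in exchange for glutamate, and so serves both the malate-aspartate shuttle and the supply of aspartate to the cytosol. Asparagine synthetase (ASNS) uses cytosolic aspartate to make asparagine, and its gene is a classic target of the response to amino acid shortage.

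RefSeq promoter windows were found for 8 of the 9 genes, all but *Decr1*. The 250 bases before the start of *Pdk4* (chr6:5496279-5496528, minus strand), *Slc25a13* (chr6:6217174-6217423, minus strand), *Asns* (chr6:7693210-7693459, minus strand) and *Grhpr* (chr4:44981144-44981393, plus strand) are given from RefSeq on GRCm38.p6, a C57BL/6J genome, for the genes with the widest differences between the lines. They are written 5′ to 3′, and capitals mark each match to a searched motif.
Pdk4: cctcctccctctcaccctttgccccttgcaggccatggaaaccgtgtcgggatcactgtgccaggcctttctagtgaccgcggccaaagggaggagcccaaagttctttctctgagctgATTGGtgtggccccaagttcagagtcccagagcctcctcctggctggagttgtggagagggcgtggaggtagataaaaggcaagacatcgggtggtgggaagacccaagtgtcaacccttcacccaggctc
Slc25a13: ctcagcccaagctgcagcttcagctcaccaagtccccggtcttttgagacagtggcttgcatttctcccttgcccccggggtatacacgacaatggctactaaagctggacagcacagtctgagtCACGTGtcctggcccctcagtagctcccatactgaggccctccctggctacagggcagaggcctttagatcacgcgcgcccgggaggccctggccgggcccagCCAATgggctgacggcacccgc
Asns: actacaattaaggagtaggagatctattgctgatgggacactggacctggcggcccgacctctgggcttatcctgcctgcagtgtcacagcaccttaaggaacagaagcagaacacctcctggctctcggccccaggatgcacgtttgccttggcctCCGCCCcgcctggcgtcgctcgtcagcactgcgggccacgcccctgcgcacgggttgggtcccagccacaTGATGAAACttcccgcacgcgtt
Grhpr: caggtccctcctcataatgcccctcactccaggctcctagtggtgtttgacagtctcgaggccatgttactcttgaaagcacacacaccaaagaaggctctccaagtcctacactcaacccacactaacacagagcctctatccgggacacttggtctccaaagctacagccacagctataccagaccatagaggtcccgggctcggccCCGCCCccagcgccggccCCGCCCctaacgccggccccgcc

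The motifs, searched on both strands, were the amino acid response element core TGATGAAAC, the CCAAT box, the GC box GGGCGG, the TATA box TATAAA, the E-box CACGTG, the cyclic AMP response element TGACGTCA and the direct repeat bound by PPAR receptors. TGATGAAAC lies 23 to 15 bases before the start of *Asns*, and 0.213% of 32851 windows of this length hold it. A CCAAT box is present before *Pdk4* (131 to 127 bases upstream) and before *Slc25a13* (22 to 18 bases upstream), as in 33.8% of all windows. CCAAT boxes also lie before *Aass*, at 101 to 97 and 61 to 57 bases upstream. The *Slc25a13* window also holds the E-box, found in 6.02% of windows. GC boxes occur in the windows of *Asns*, *Grhpr*, *Aco1*, *Aldh1b1* and *Impdh1*, and in 32.7% of all windows. The *Pdk4* window has 6 CpG dinucleotides, the median of all windows, the *Slc25a13* window 11, the *Grhpr* window 11 and the *Asns* window 16. These matches are letters in a reference window, and binding was not measured.

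Of the 9 genes, 7 passed the low-count filter of edgeR (filterByExpr), and each of the 7 had an adjusted p-value under 5e-05 in the fit across all 8987 rows that passed. In that fit 30.4% of all rows passed this threshold, and 53.9% of the 343 tested rows in the windows did. Most of the 8987 rows lie outside the windows, where a count cannot be read as the named gene. The share over all rows is therefore a share of table rows, and the totals behind CPM include such rows too. The libraries of the lines did not overlap for these 7 genes, as for 62.2% of all tested rows and 77.3% of those in the windows. The genes were chosen with this contrast known, so the counts carry no weight of their own. *Pdk4*, *Slc25a13* and *Decr1* were near or at 0 in UN-SCC680, *Asns*, *Grhpr* and *Aco1* were higher in UN-SCC680, and *Impdh1* was lower. *Aldh1b1* had 2 counts in all, and *Aass* had 0 in every library.

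**Figure D1:**
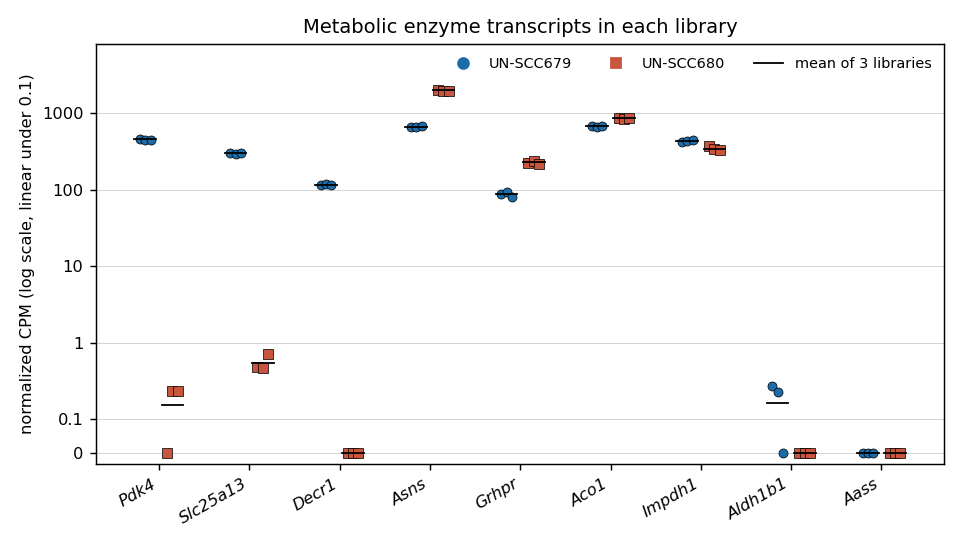
Normalized CPM (counts relative to the TMM-scaled library total) on a log axis that is linear under 0.1, for the 9 genes in each of the 3 UN-SCC679 libraries (circles) and the 3 UN-SCC680 libraries (squares), with lines at the means. Pdk4 lies between 449 and 464 in UN-SCC679 and at or under 0.236 in UN-SCC680, whereas Asns lies between 659 and 680 in UN-SCC679 and between 1959 and 2011 in UN-SCC680.

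*Pdk4* (ENSMUSG00000019577.7, GRCm38 chromosome 6, 5483351 to 5496309, minus strand) had 1724, 1973 and 1605 counts in the UN-SCC679 libraries and 0, 1 and 1 in the UN-SCC680 libraries. Every UN-SCC679 library was far above every UN-SCC680 library. By library totals, the level was 2948-fold higher in UN-SCC679 (95% exact interval 816 to 24353, counting error only). The UN-SCC679 mean was 454 ± 8.76 normalized CPM (SD, n = 3). With so few counts in UN-SCC680, the width of the interval is set by the depth there. In bulk RNA, fewer cells with a transcript and less of it per cell cannot be told apart, for this and the other genes.

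The enzyme that opposes PDK4 is pyruvate dehydrogenase phosphatase. *Pdp1*, on chromosome 4 and also inside the windows, encodes a catalytic subunit of it. *Pdp1* had 519, 611 and 496 counts in UN-SCC679 and 1014, 1079 and 1084 in UN-SCC680. Its log2 fold change was 0.84 (standard error 0.051, adjusted p = 9.91e-19 from edgeR), higher in 3 of 3 UN-SCC680 libraries. *Pdk4* counts were 3.23 to 3.32 times *Pdp1* counts within each UN-SCC679 library. In UN-SCC680 there was at most 1 *Pdk4* count beside more than 1000 of *Pdp1*. The *Pdk4* transcript outnumbered the *Pdp1* transcript in UN-SCC679 libraries and was nearly missing beside it in UN-SCC680, before any account of gene length. The rows of *Pdk1*, *Pdk2*, *Pdk3* and the subunits of the complex lie outside the windows and were not used here. *Pdp2*, which encodes another catalytic subunit of the phosphatase, was not used either, so the balance of kinases and phosphatases was not read.

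*Slc25a13* (ENSMUSG00000015112.16, chromosome 6, 6041218 to 6217173, minus strand) had 1115, 1294 and 1082 counts in the UN-SCC679 libraries. In the UN-SCC680 libraries it had 2, 2 and 3. The level by library totals was 555-fold higher in UN-SCC679 (95% exact interval 269 to 1381, counting error only), and the libraries did not overlap. The other aspartate-glutamate carrier, *Slc25a12*, lies outside the windows, so the citrin transcript alone is described.

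*Asns* (ENSMUSG00000029752.13, chromosome 6, 7675169 to 7693254, minus strand), which consumes cytosolic aspartate, differed the other way. It had 2449, 2924 and 2433 counts in UN-SCC679 and 8450, 8463 and 8304 in UN-SCC680. The means were 668 ± 11.1 normalized CPM against 1977 ± 29.3 in UN-SCC680 (SD, n = 3 each), with no overlap. On the log2 scale the difference was 1.57 (standard error 0.032), or 2.96-fold. With the rows of the windows fitted alone, which changes the scaling, it was 1.33. *Slc25a13*, near 0 in UN-SCC680, and *Asns*, the most abundant of the 9 genes there, act at 2 neighboring steps of aspartate use. These are export from mitochondria and amidation. *Asns* took 24.1% to 24.8% of the counts of the 9 genes in UN-SCC679 libraries and 57.9% to 58.1% in UN-SCC680 libraries. Part of this gain is the loss of other counts from the total, since *Pdk4*, *Slc25a13* and *Decr1* together made up 31.6% to 32.2% of it in UN-SCC679 and at most 0.0280% in UN-SCC680.

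*Decr1* (ENSMUSG00000028223.9, chromosome 4, 15917240 to 15945507, minus strand) had 433, 518 and 412 counts in the UN-SCC679 libraries and 0 in each UN-SCC680 library. Its normalized CPM in UN-SCC679 was 117 ± 1.28 (SD, n = 3). Against a floor of 3 counts in the smallest UN-SCC680 library, which corresponds to 0.707 CPM, the level was at least 165-fold lower in UN-SCC680, counting error alone considered. Of 20 other listed genes of fatty acid oxidation, among them *Cpt1a*, *Acadm* and *Hadha*, 0 lie in the windows, so the step of DECR1 stands without its pathway here.

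The remaining measurable genes differed by smaller amounts. *Grhpr* (ENSMUSG00000035637.15, chromosome 4, 44981395 to 44990734, plus strand) encodes glyoxylate and hydroxypyruvate reductase, which clears glyoxylate, a precursor of oxalate. It had 322, 415 and 283 counts in UN-SCC679 and 943, 1030 and 919 in UN-SCC680, where every library was higher. The means were 86.7 ± 7.61 normalized CPM against 227 ± 10.8 in UN-SCC680 (SD, n = 3 each). The log2 difference was 1.38 (standard error 0.061), or 2.60-fold, and it was 1.14 with the rows of the windows fitted alone.

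*Aco1* (ENSMUSG00000028405.10, chromosome 4, 40143081 to 40198338, plus strand) encodes the cytosolic aconitase, which turns into the iron regulatory protein IRP1 when its iron-sulfur cluster is lost. It had 2546, 2917 and 2402 counts in UN-SCC679 and 3656, 3635 and 3692 in UN-SCC680. The means were 673 ± 11.0 and 861 ± 17.2 normalized CPM (SD, n = 3 each). The log2 difference was 0.36 (standard error 0.034), or 1.28-fold. When the rows of the windows were fitted alone, which changes the scaling and also the rows tested and adjusted over, the log2 fold change of *Aco1* was 0.12 and it no longer passed the threshold. The ends of this row lie 184 and 671 bases from those of RefSeq, the widest gap among the 9 genes.

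*Impdh1* (ENSMUSG00000003500.14, chromosome 6, 29200433 to 29216363, minus strand) encodes an inosine monophosphate dehydrogenase, the enzyme that commits purines to guanine nucleotides. Its counts were 1565, 1890 and 1603 in UN-SCC679 and 1542, 1450 and 1381 in UN-SCC680. The means were 433 ± 13.9 and 343 ± 21.3 normalized CPM (SD, n = 3 each), with all UN-SCC680 libraries below the UN-SCC679 ones. The log2 fold change was -0.34 (standard error 0.043), 1.26-fold lower in UN-SCC680, and -0.57 when the rows of the windows were fitted alone. The paralog *Impdh2*, outside the windows, was not used here.

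*Aldh1b1* (ENSMUSG00000035561.6, chromosome 4, 45799022 to 45804604, plus strand), a mitochondrial aldehyde dehydrogenase, had 1, 1 and 0 counts in UN-SCC679 and 0 in each UN-SCC680 library. *Aass* (ENSMUSG00000029695.14, chromosome 6, 23072172 to 23132985, minus strand), which starts the breakdown of lysine, had 0 counts in all 6 libraries. In the smallest library of each line, a count of 0 allows up to 0.841 CPM in UN-SCC679 and 0.707 CPM in UN-SCC680. These limits cover counting error only and lie far under the 117 CPM of *Decr1*, the least abundant of the 3 genes near 0 in UN-SCC680, in UN-SCC679. No fold change is given for *Aldh1b1* or *Aass*.

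For levels between genes, normalized CPM was divided by the exonic length of the row in kb. In UN-SCC679 the order was *Asns* (244 ± 4.05 CPM per kb), *Aco1* (150 ± 2.45), *Impdh1* (131 ± 4.21), *Pdk4* (129 ± 2.50), *Slc25a13* (78.7 ± 1.13), *Grhpr* (54.1 ± 4.75) and *Decr1* (30.03 ± 0.330, all SD, n = 3). *Impdh1* and *Pdk4* overlapped between libraries, and the other neighbors in this order did not. In UN-SCC680 *Asns* stood at 723 ± 10.7 CPM per kb, *Aco1* at 192 ± 3.82, *Grhpr* at 141 ± 6.76 and *Impdh1* at 104 ± 6.48 (SD, n = 3), without overlap between neighbors. *Grhpr*, below *Impdh1* in UN-SCC679, was above it in UN-SCC680, and *Asns* led in both lines.

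**Figure D2:**
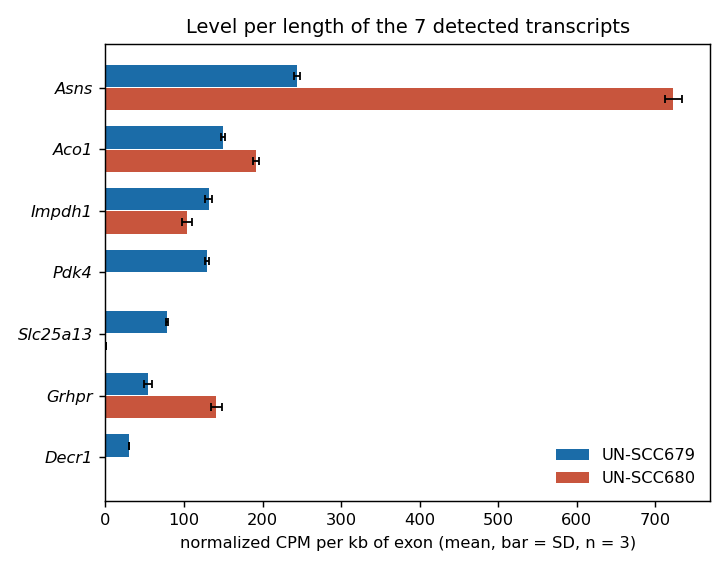
Mean normalized CPM per kb of exon (x axis, from 0) of the 7 detected genes in UN-SCC679 and UN-SCC680, with bars for the SD of 3 libraries. Asns is highest in both lines, at 244 and 723, and Pdk4, Slc25a13 and Decr1 have no visible bar in UN-SCC680.

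Ratios of counts within a library do not depend on the scaling. *Asns* had 1.52 to 1.56 counts per *Impdh1* count in UN-SCC679 libraries and 5.48 to 6.01 in UN-SCC680 libraries. The ratio of *Grhpr* to *Impdh1* was 0.177 to 0.220 in UN-SCC679 and 0.612 to 0.710 in UN-SCC680, and that of *Aco1* to *Impdh1* was 1.498 to 1.63 and 2.37 to 2.67. Every UN-SCC680 library was thus above every UN-SCC679 library in these 3 ratios. *Impdh1* was itself lower in every UN-SCC680 library, so this order follows from the values above and adds no support to them. The mean of *Asns* per *Impdh1* was 3.74-fold higher in UN-SCC680, against 2.96-fold for *Asns* alone. *Asns* per *Grhpr* was 7.05 to 8.60 in UN-SCC679 and 8.22 to 9.04 in UN-SCC680, so these ranges overlapped, whereas *Aco1* per *Grhpr* was lower in UN-SCC680 (3.53 to 4.02 against 7.03 to 8.49). Among the genes near 0 in UN-SCC680, *Pdk4* had 1.48 to 1.55 counts per *Slc25a13* count and 3.81 to 3.98 per *Decr1* count in UN-SCC679 libraries.

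**Figure D3:**
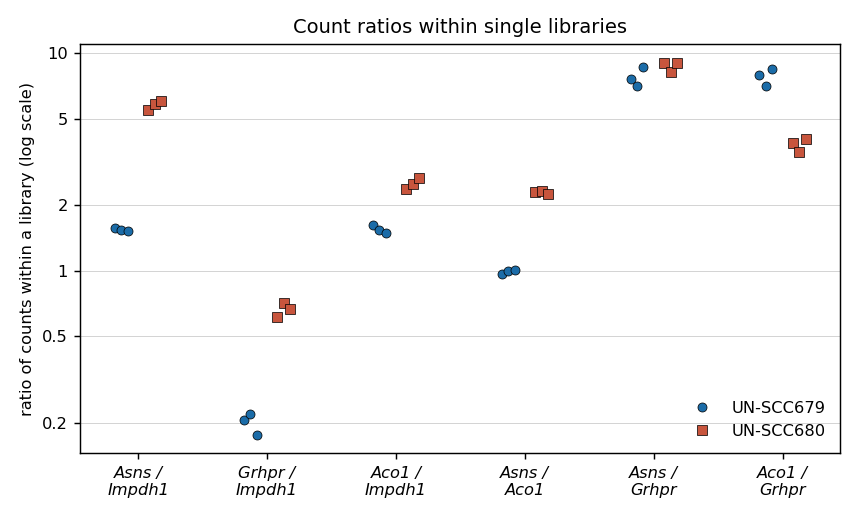
Ratio of the counts of 2 genes within each library, on a log axis, for 6 pairs of the genes measurable in both lines, with circles for UN-SCC679 and squares for UN-SCC680. The lines separate in 5 pairs and overlap in Asns per Grhpr, at 7.05 to 8.60 and 8.22 to 9.04.

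Neighboring genes were read for each of the 9, as the nearest tested rows on either side. *Decr1* lies 12.4 kb from *Nbn*, a DNA repair gene, whose level was 191 CPM in UN-SCC679 and 284 CPM in UN-SCC680 (log2 fold change 0.57, adjusted p = 3.22e-12 from edgeR). *Tmem64*, on the other side at 630 kb, had 179 and 147 CPM, so both neighbors of *Decr1* were expressed in UN-SCC680 while *Decr1* had 0 counts. Next to *Pdk4*, *Asb4* had 46.7 CPM in UN-SCC679 and 2.12 CPM in UN-SCC680, and differed by -4.44 on the log2 scale (adjusted p = 1.21e-24 by edgeR). Between *Pdk4* and *Slc25a13*, 545 kb apart, 0 rows passed the filter, so the 2 genes are neighbors among the tested rows. *Pon2*, farther out beyond *Asb4*, had 360 and 331 CPM and *Pon3*, next to it, 121 and 231 CPM, and beyond *Slc25a13* the next named row, *Shfm1*, had 677 and 829 CPM. On the *Pdk4* side, beyond *Pon3*, further genes were at or near 0 in UN-SCC680. *Casd1* had 1837 counts over the UN-SCC679 libraries and 0 in UN-SCC680, *Peg10* 282 and 0, *Sgce* 70 and 0, and *Ppp1r9a* 95 and 14. *Sgce* and *Ppp1r9a* were low in UN-SCC679 as well, at 6.11 and 7.94 CPM. Beyond *Casd1*, *Col1a2* was lower in UN-SCC680 but far from 0, with 28061 CPM in UN-SCC679 and 2267 CPM in UN-SCC680. Genes near 0 in UN-SCC680 and genes expressed in both lines thus both lie along this stretch of chromosome 6.

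**Figure D4:**
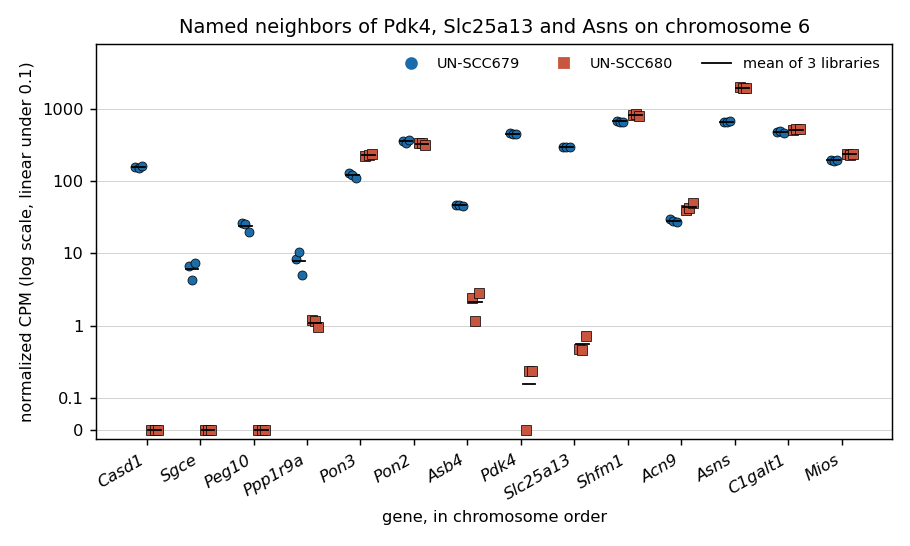
Normalized CPM in each library (log axis, linear under 0.1) of the named tested genes from Casd1 to Mios in chromosome order, with circles for UN-SCC679, squares for UN-SCC680 and lines at the means of 3 libraries. Asb4, Pdk4 and Slc25a13 have UN-SCC680 means of 2.12, 0.156 and 0.549, between Pon2 at 331 and Shfm1 at 829, and Casd1, Sgce and Peg10 are at 0 in UN-SCC680.

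Named neighbors of *Asns* and *Grhpr* did not pass the threshold. *C1galt1*, beside *Asns*, had 479 and 518 CPM (log2 fold change 0.11, adjusted p = 0.0108 from edgeR). *Zbtb5*, which begins 0.508 kb beyond *Grhpr*, had 139 and 149 CPM, and *Zcchc7* on the other side 277 and 311 CPM (adjusted p = 0.131 and 0.00118 from edgeR). Beside *Aco1*, *Ddx58*, a sensor of viral RNA, was lower in UN-SCC680, with 848 and 405 CPM (log2 fold change -1.07, adjusted p = 8.20e-28 from edgeR), and *Gm12387* on its other side was higher, with 26.7 and 44.3 CPM (0.73, adjusted p = 5.22e-08). Of the neighbors of *Aass*, *Cadps2* had 152 counts over the UN-SCC679 libraries and 0 in UN-SCC680, and ENSMUSG00000106803 had 69 and 138 and did not pass the threshold. Beside *Aldh1b1*, E230008N13Rik had 80 counts and 1, and *Gm12411* had 327 and 277 CPM. The neighbors of *Impdh1*, *Rbm28* (718 and 648 CPM) and 2310016C08Rik (99.3 and 121 CPM), did not pass the threshold. All calls of neighbors are from the fit across all tested rows and depend on its scaling. Fitting the rows of the windows alone moved their log2 fold changes by a median of -0.24, and calls of the neighbors in that fit are not given. A neighbor that did not pass is thus not shown to be unchanged. No row shared exonic bases with any of the 9 genes, so their counts cannot include reads of an overlapping exon in this annotation.

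Other metabolic genes were listed, 162 in all, and 43 of them lie in the windows. Of the 43, 37 stand in a list of other enzymes and carriers of the windows, and not in a pathway list. Of the 43, 31 passed the low-count filter. In UN-SCC680, 14 were higher and 3 lower at an adjusted p-value under 5e-05 (edgeR), whereas 14 did not pass this threshold. The list of other enzymes and carriers supplied 26 of the 31, 11 of the 14 higher genes and all 3 lower ones. The counts and the median of the 31 genes therefore describe mostly that list and are not a result for the pathways. Among all 343 tested rows in the windows, 38.5% were higher and 15.5% lower. The median log2 fold change was 0.36 over the 31 genes, 0.23 over the rows in the windows and -0.0028 over all tested rows. Fitting the rows of the windows alone moved their log2 fold changes by a median of -0.24. In that fit, whose scaling, tested rows and adjustment all differ, 8 listed genes were higher and 12 lower. Over all rows of the windows, 72 were higher and 87 lower there, against 132 and 53 in the fit across all rows. The shift is thus shared by the windows and is not particular to the listed genes. *Car9*, *Galnt12*, *Impad1*, *Manea*, *Nipsnap3b*, *Pdp1*, *Pon3* and *Slc44a1* were higher in both fits.

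**Figure D5:**
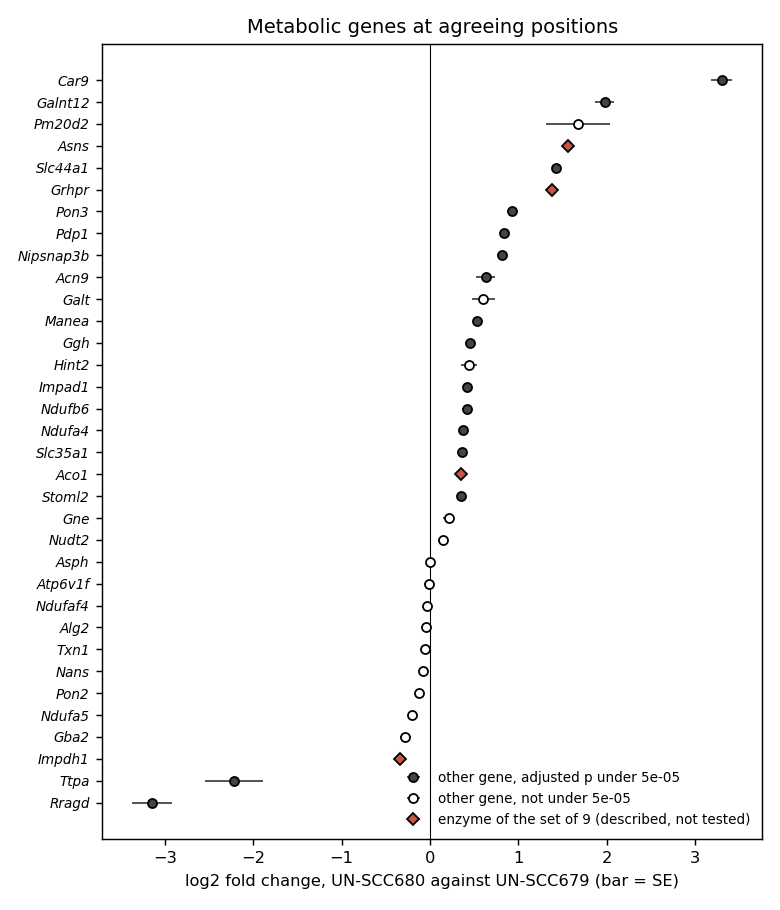
Log2 fold change of UN-SCC680 against UN-SCC679 (x axis, bars for the standard error) of 30 listed metabolic genes in the windows, filled where the adjusted p-value was under 5e-05, and of 4 genes of the set (diamonds, described and not tested). Asns at 1.57 and Grhpr at 1.38 lie beside Slc44a1 at 1.43, and Casd1, with 0 counts in UN-SCC680, is left out.

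By pathway, *Pdp1* was the only gene of the pyruvate entry list in the windows that passed the low-count filter. Of the aspartate list, *Asph*, which hydroxylates aspartyl residues of proteins, had 1457 and 1453 CPM (log2 fold change -0.0037, adjusted p = 0.927 from edgeR). The sign changed under 5 other settings, and with the rows of the windows alone *Asph* passed as lower (-0.24). *Acn9*, also known as *Sdhaf3*, an assembly factor of succinate dehydrogenase, had 28.4 and 43.9 CPM (log2 fold change 0.63, adjusted p = 2.03e-06 from edgeR). In the purine list, *Ggh*, which trims polyglutamate from folates, was higher in UN-SCC680 (log2 fold change 0.45, adjusted p = 5.45e-10 from edgeR), and *Nudt2* did not pass the threshold (0.15, adjusted p = 0.0279). *Acn9* and *Ggh* no longer passed when the rows of the windows were fitted alone. *Acn9* was also lost with DESeq2 and without UN-SCC679 replicate 2 or UN-SCC680 replicate 3 (log2 fold change 0.54 to 0.65 in these). No gene of the fatty acid list or of the list for lysine, glyoxylate and aldehydes lies in the windows.

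Of the genes named after respiratory complex I, 4 were tested, though *Ndufa4* is no longer placed in that complex. *Ndufb6* and *Ndufa4*, a subunit first assigned to complex I, were higher in UN-SCC680 (log2 fold changes 0.42 and 0.37, adjusted p = 8.90e-08 and 1.93e-13 from edgeR), and the assembly factor *Ndufaf4* and the subunit *Ndufa5* did not pass the threshold (-0.038 and -0.21). In the fit of the windows alone, *Ndufb6* and *Ndufa4* no longer passed and *Ndufaf4* and *Ndufa5* passed as lower, so these 4 genes are not given a direction.

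Of the listed genes, 7 had an absolute log2 fold change over 1. *Casd1*, which acetylates sialic acids, had 586, 673 and 578 counts in UN-SCC679 whereas UN-SCC680 had 0 throughout. Against the same floor it was at least 224-fold lower there. *Car9*, a cell surface carbonic anhydrase known from hypoxic tumors, was higher in UN-SCC680, with 8.41 and 83.7 CPM (log2 fold change 3.30, standard error 0.12, adjusted p = 7.41e-27 from edgeR). *Slc44a1*, a choline transporter, had 470 CPM in UN-SCC679 and 1265 CPM in UN-SCC680 (log2 fold change 1.43, standard error 0.035, adjusted p = 1.69e-33 from edgeR). *Galnt12*, which starts O-linked glycans, had 16.4 and 64.4 CPM (1.98, adjusted p = 8.66e-21). *Rragd*, a small GTPase that signals amino acid supply to mTORC1, had 82, 88 and 68 counts in UN-SCC679 and 13, 8 and 8 in UN-SCC680 (-3.15 on the log2 scale, adjusted p = 1.73e-16). *Ttpa*, the carrier of vitamin E, was lower as well, with 78 counts over the UN-SCC679 libraries and 18 over the UN-SCC680 libraries (adjusted p = 1.38e-07), and did not pass with DESeq2. *Pm20d2* had 17 and 60 counts and did not pass the threshold (adjusted p = 0.000117). Of the 12 listed genes in the windows that failed the filter, the highest total was 8 counts, in *Aqp7*.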

How the data were processed

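PolyA RNA of UN-SCC679 and UN-SCC680 was sequenced in 3 stranded paired-end libraries per line. The table deposited by the authors holds unnormalized whole-number counts, 1 row per Ensembl gene, beside exon positions and exonic length. The study describes trimming (Trimmomatic), Kallisto on mm10 and testing in DESeq2, whereas the submitters' processing notes name featureCounts and mm10, and the table has the featureCounts layout. The strand setting of the counting is not stated. Most positions in the table are not those of mm10 (GRCm38), so a count there cannot be read as the named gene. Of 559 rows in the windows compared with RefSeq GRCm38.p6, 536 had an end within 1000 bases and 376 within 10. Symbols were matched to 31021 of 55359 identifiers. Column names give line and replicate, and 0 columns of values were unused.

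The lines were compared with edgeR's quasi-likelihood test (filterByExpr, TMM factors 0.985 to 1.01, no covariates) and Benjamini-Hochberg adjustment over all tested rows at 5e-05. Standard errors were derived from the F statistic. On data simulated for this comparison, 187 of 200 rows changed 2-fold among 8987 were called, with 0 calls among the rest. The changed rows were drawn from those with more counts, equally up and down, and a single fixed spread was used. They were far fewer than the rows called in the data, and recovery of rows with few counts was not measured. Replicates differed by more than sampling noise (chi-square per degree of freedom 1.11 to 1.63). Exact intervals are Clopper-Pearson at 95%. The named genes were the 9 genes, the listed metabolic genes, the nearest tested rows beside each of the 9 genes, and the rows most like *Pdk4*. *Sgce*, *Peg10*, *Ppp1r9a* and *Shfm1* were added after their values were seen. The genes, lists and tests were chosen with earlier results of these data known. Alternatives are named at the end. Fits ran in DESeq2 1.42.0, edgeR 4.0.16 and limma 3.58.1 under R 4.3.3. Tables and plots used pandas 2.3.3, matplotlib 3.10.9, NumPy 2.4.6 and SciPy 1.17.1 under Python 3.11.15.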

Additional observations from a re-analysis of the deposited data

How the results depend on the processing

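Of the 8987 tested rows, the 2736 called between the lines were 5248 once the adjusted p threshold was 0.05 and 1024 when a 2-fold change was required too. With the rows of the windows alone, which are fewer rows, 159 were called. The 17 listed genes called were 25 at the threshold of 0.05 and 6 when a 2-fold change was required. DESeq2, limma-voom, library size scaling, DESeq2 size factors in edgeR and both other filters gave 1857 to 3070 rows and 15 to 20 listed genes. The 7 called genes of the set of 9 became 6 with the windows alone, without *Aco1*, and 5 when a 2-fold change was required. Leaving out a library gave 2226 to 2611 rows, 16 to 18 listed genes and 7 genes of the set. Since the 9 genes were chosen with this contrast known, counts of calls among them carry no weight of their own under any setting.

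The 98 log2 fold changes of the 7 genes under these settings kept their sign, and 20 of them moved by more than the spread between replicates. For *Decr1*, which had 0 counts in UN-SCC680, the fitted value ran from -12.02 to -9.95. Of 434 values for the other listed genes, 11 changed sign, none in a called gene. *Asph* became 0.015 with DESeq2 and 0.029 with no low-count filter, and ran from -0.017 to 0.010 without 1 library. *Atp6v1f* became 0.0028 with DESeq2 and 0.016 with no low-count filter, and ran from -0.033 to 0.013 without 1 library (0.00063 without UN-SCC680 replicate 1). With the windows alone *Nudt2* became -0.091 and *Gne* -0.027.

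The replicate block gave 2523 rows, 17 listed genes and 7 genes of the set. Same-numbered libraries showed correlations of -0.038, -0.00052 and -0.022 between their deviations from the line means, and are not treated as pairs. Depth limits what can be said of *Pdk4*, *Slc25a13*, *Decr1*, *Aldh1b1* and *Aass* at a few counts or 0.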

Other observations

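Over the 6 libraries, the rows of the windows whose centered log2 CPM (prior count 2) lay closest to that of *Pdk4* were *Flnc* (Euclidean distance 0.493), *Casd1* (1.48) and *Slc25a13* (1.65). With 2 lines and 3 libraries each, this measure mostly ranks the size of the difference between the lines. *Flnc* had 1698 CPM in UN-SCC679 and 2.58 CPM in UN-SCC680.

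Among the listed genes, 2 lie outside the windows with an end within 10 bases of the GRCm38 one. *Aasdhppt*, which attaches the phosphopantetheine arm to acyl carrier proteins and stands in the list with lysine breakdown, lies on chromosome 9 and had 494 CPM in UN-SCC679 and 285 CPM in UN-SCC680 (log2 fold change -0.80, standard error 0.042, adjusted p = 5.05e-21, edgeR). It was lower in 3 of 3 UN-SCC680 libraries. *Ugcg*, the glucosylceramide synthase, lies on chromosome 4 just past the window and had 294 and 345 CPM (log2 fold change 0.23, adjusted p = 1.19e-05). Neither was counted with the genes above.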
